A study of Mus musculus with 8 samples.

Results

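The genes described here are 10 genes of the actomyosin and cytoskeletal scaffold machinery, taken by gene symbol from the 24516 genes of the deposited table. They are the cytoplasmic actins Actb and Actg1, the nonmuscle myosin heavy chain Myh9, the filament-severing protein gene Cfl1, the actin regulator Coro1a, the bundling and crosslinking protein genes Lcp1 and Flna, the integrin-linking protein gene Tln1, the intermediate filament gene Vim and the giant scaffold gene Ahnak. All 10 symbols were found. Of these, 8 passed the filter on low counts, and Actg1 and Flna did not.

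The study compared cardiac tissue macrophages of endocardial origin (EcTM, 4 libraries) with cardiac tissue macrophages of other origin (non-EcTM, 4 libraries), sorted by flow cytometry from mouse heart. Every library came from C57BL/6 mice at postnatal day 28 carrying Nfatc1Cre/+ and Rosa26Tomato reporter/+. In such mice a Cre recombinase is expressed from Nfatc1, a gene active in the endocardium. This Cre permanently switches on a red fluorescent reporter in cells that have expressed it and in their descendants. Non-EcTM cells share the inherited genotype of EcTM cells, but not the switched-on reporter. Origin is thus read from a lineage label that depends on where and how completely that Cre acted, and the labels do not say whether animals were pooled. The EcTM libraries are E591, E592, E604 and E606 and the non-EcTM libraries N591, N592, N604 and N606, and values below follow this order. Libraries with the same digits are treated as a pair. What the digits stand for, an animal, a litter or a pool, is not in the labels. The p-values of the paired group test therefore set a difference against the spread left within these library pairs. They do not set it against a known spread between animals.

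Actin polymerises from monomers into filaments that give the cell cortex its shape, and nonmuscle myosin II pulls on those filaments to generate tension. Cofilin severs old filaments and returns monomers to the pool, coronins modulate this turnover, plastins bundle filaments and filamins crosslink them into networks. Talin couples the filaments to integrins at the membrane, and vimentin forms the intermediate filaments typical of mesenchymal cells and leukocytes. Macrophages use this machinery to crawl, to spread and to engulf particles.

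The libraries held between 2152425 and 2937464 counts each, and 7667 genes passed the filter. The sorted identity was checked with marker lists: 13 of 14 macrophage markers passed the filter, with a summed level of 30865 to 31456 CPM (counts scaled to a common library total) in EcTM and 28710 to 31126 in non-EcTM libraries, and Itgam was listed at 0 in every library. Summed markers of other cells were lower. A marker listed at 0 is not read as absent, since the macrophage marker Itgam was also at 0. Pecam1 was at 0 in N591, where the endothelial marker Kdr held 194 CPM. Summed endothelial and endocardial markers reached 43.0 to 337 CPM in EcTM and 90.4 to 926 CPM in non-EcTM libraries, with Pecam1, Tek, Esam, Emcn and Npr3 at 0. Mural markers summed to 79.5 to 99.6 CPM against 77.5 to 295 CPM, with Myh11, Pdgfrb and Kcnj8 at 0. Fibroblast markers summed to 32.8 to 149 CPM against 26.2 to 201 CPM, with Pdgfra and Postn at 0. Cardiomyocyte markers summed to 78.9 to 144 CPM against 98.2 to 176 CPM, with Myh6, Tnnt2 and Pln at 0. All 5 endothelial and endocardial markers and all 5 mural markers that passed the filter were lower in EcTM. Their median log2 fold changes were -1.10 and -0.69. Fibroblast markers split 3 higher and 1 lower, and cardiomyocyte markers 2 higher and 5 lower. None of these markers passed the paired group test described below. The highest value of each of these 4 lists was in N591. Platelet markers lay at 446 to 569 CPM against 483 to 609 CPM, with Gp1bb and Treml1 at 0. Of the 6 platelet markers, 2 passed the filter, Pf4 and Ppbp. Group means, EcTM first, were 487 and 547 CPM for Pf4, but 6.75 and 7.08 CPM for Ppbp. The platelet sum is thus mostly Pf4 and is not read as platelet RNA. Which cells the Pf4 RNA came from was not tested. Neutrophil markers summed to at most 7.26 CPM and lymphocyte markers to at most 15.4 CPM in any library.

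Actb and Actg1 encode nearly identical proteins, and the first coding exons of both genes are shown because their counts differed so widely here. The stretches are from GRCm38 (GENCODE M21 annotation), on the minus strand, at chr5:142905564-142905686 for Actb and chr11:120347969-120348091 for Actg1. Capitals mark the bases at which the aligned exons differ.
Actb: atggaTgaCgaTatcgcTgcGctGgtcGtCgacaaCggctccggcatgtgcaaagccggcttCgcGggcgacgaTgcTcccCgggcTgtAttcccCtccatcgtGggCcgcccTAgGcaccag
Actg1: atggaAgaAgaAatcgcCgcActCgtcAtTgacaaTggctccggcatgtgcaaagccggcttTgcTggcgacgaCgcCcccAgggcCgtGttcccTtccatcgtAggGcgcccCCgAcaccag

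These exons are 123 bases long and differ at 22 positions. Over the whole coding sequence of 1125 bases, 128 positions differ, an identity of 88.6%. The longest identical run is 62 bases. Of the 1076 windows of 50 bases in the Actb coding sequence, 30 also occur in that of Actg1. Reads from such windows cannot be assigned to 1 actin gene by sequence, and whether they were counted, discarded or split is not stated in the labels. The counts of both actins are uncertain at least to that extent. The comparison covered only exact matches of 50 bases between the coding sequences, so it sets no upper limit.

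A further limit touches Actg1, Flna, Coro1a and Lcp1. Among 135 cytoskeletal genes with known curated RefSeq transcripts, the 65 genes with 1 curated transcript had a median total count of 4812 over the 8 libraries. The 25 genes with 2 had a median of 360, and the 45 genes with 3 or more a median of 60. Actg1, Flna, Lcp1 and Coro1a have 2 curated transcripts each, whereas Actb, Myh9, Tln1, Vim and Cfl1 have 1. The labels name neither the counting program nor its annotation, and the cause was not tested. A low count of a gene with several transcripts is therefore not read as low expression below. The next share was taken over GENCODE M21 transcripts that carry a curated messenger RNA accession. The share of exonic bases that lie in exactly 1 such transcript was lowest for Flna, at 1.47%. The coding segment of this kind is 24 bases long, at chrX:74232967-74232990 on the minus strand of GRCm38, and is shown in lower case throughout because no base in it is singled out.
Flna: tgtcaatcggaggtcacgggctag

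The same share was 21.8% for Coro1a, 40.9% for Lcp1 and 83.3% for Actg1. Total counts were 7 for Flna, 358 for Coro1a, 1577 for Lcp1 and 57 for Actg1. Over all GENCODE protein-coding transcripts the share was 1.44%, 23.9%, 11.4% and 17.2% for these genes, in that order. The part of this share in the counts was not tested. For Ahnak, the share over GENCODE transcripts with a curated accession was 96.8%. It rested on 2 transcripts, and a segment of 17498 bases was present in only 1 of these. Ahnak has 4 curated RefSeq transcripts, 3 of them messenger RNAs, so not all were compared.

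**Figure D1:**
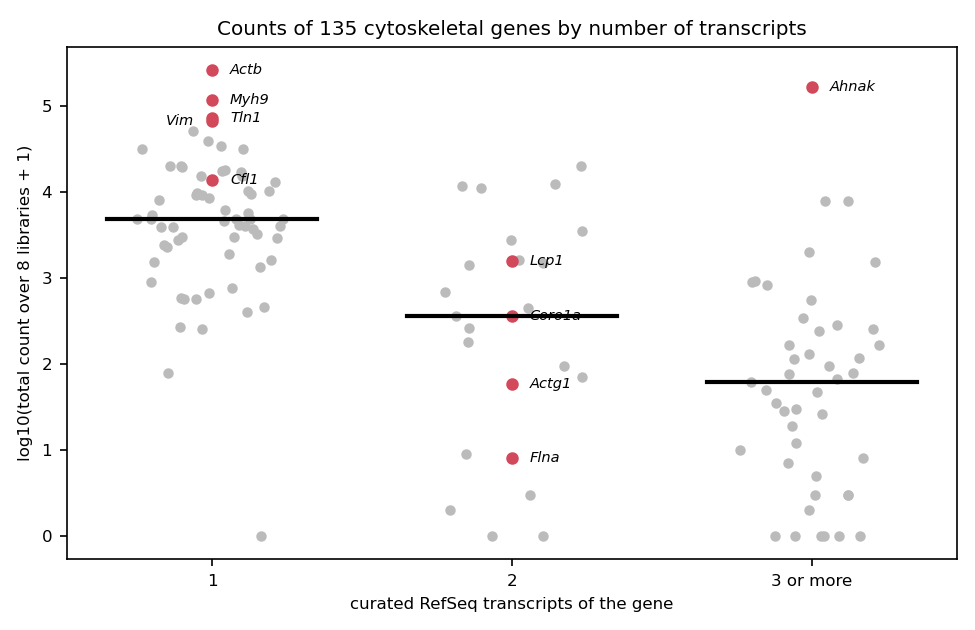
Total count over the 8 libraries, as log10(count + 1), of 135 cytoskeletal genes by the number of curated RefSeq transcripts. Points are genes, red points the 10 genes described here and black lines group medians (4812, 360 and 60 counts for 1, 2, and 3 or more transcripts). Ahnak lies far above the other genes with 3 or more transcripts.

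Together the 10 genes took up 690570 counts, 3.31% to 3.71% of each EcTM library and 3.37% to 3.66% of each non-EcTM library. Actb alone held 37.2% of these counts and Ahnak 23.8%, and Actb, Ahnak, Myh9, Tln1 and Vim together held 97.7%. By total count Actb ranked 3, Ahnak 6, Myh9 9, Tln1 20 and Vim 22 among all genes in the table. Cfl1 ranked 195, Lcp1 2142, Coro1a 4928, Actg1 8317 and Flna 11700.

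The summed share averaged 3.54% ± 0.185 (SD, n = 4) in EcTM and 3.47% ± 0.133 (SD, n = 4) in non-EcTM libraries. EcTM minus non-EcTM was -0.0590 percentage points for E591 and N591, 0.190 for E592 and N592, 0.0920 for E604 and N604 and 0.0561 for E606 and N606. The mean difference of 0.0698 points was smaller than the SD of either group, and without Actb it was -0.00299 points. Leaving out E591 and N591 gave 0.113 points and leaving out E592 and N592 gave 0.0297. With TMM scaling the shares were 3.61% ± 0.212 in EcTM and 3.45% ± 0.0859 in non-EcTM (SD, n = 4 each), and the difference was 0.159 points, above the non-EcTM SD and below the EcTM SD. On that scale the pairs differed by 0.00173, 0.304, 0.0984 and 0.232 points. The group SDs also hold the spread between library numbers, so they are not the spread of the pair differences. In bulk RNA, a difference in the number of cells of one kind and a difference in RNA per cell cannot be told apart.

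Among genes with 1 curated RefSeq transcript, counts were set side by side per kilobase of messenger RNA. The annotation used for counting is not known, and the Actb count carries the uncertainty from Actg1 given above. Actb stood highest at a mean of 6862 CPM per kilobase over the 8 libraries (range 6506 to 7572), followed by Vim at 1545 (1234 to 1998), Myh9 at 799 (752 to 838), Tln1 at 432 (400 to 448) and Cfl1 at 296 (271 to 339). No neighbours in this order overlapped in any library. Ahnak, with several transcripts and the longest messenger RNA of the 10 at 18.1 kilobases, had 463 CPM per kilobase (404 to 538), a range that overlapped that of Tln1.

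No gene of the 10 passed the test for EcTM against non-EcTM. With the library number as a block, edgeR's quasi-likelihood test with Benjamini-Hochberg adjustment over 7667 genes called 1 gene (0.0130%) and 0 of the 8 tested genes described here. Without the block it called 0 genes, with 257 at an unadjusted p under 0.05. With the block, 2 of the 8 had an unadjusted p under 0.05, Actb and Myh9, beside 414 genes (5.40%) overall. Of the 8, 5 were higher and 3 lower in EcTM. Their median log2 fold change was 0.04, against -0.01 over all tested genes. Their median absolute log2 fold change was 0.07, against 0.20 over all tested genes and 0.08 over the 117 most abundant genes (mean log2 CPM 10 or more). Paired limma-voom called Actb, 1 of 19 genes it called (0.248%), while DESeq2 called 0 of the 7 to which it gave an adjusted p (26 of 2660 such genes, 0.977%). Before adjustment DESeq2 gave 3 of the 10 a p under 0.05, Actb, Myh9 and Vim, beside 5.29% of all genes.

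**Figure D2:**
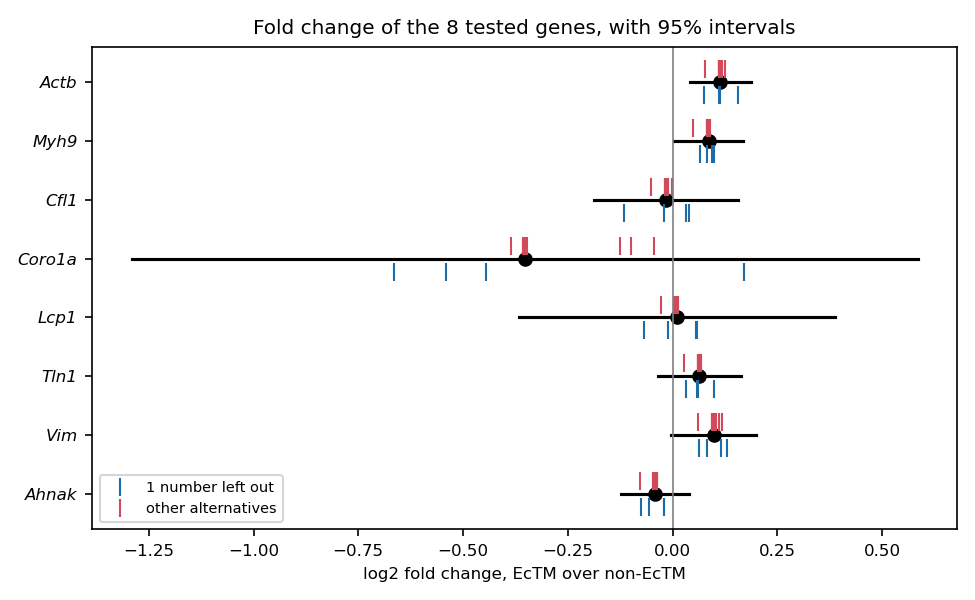
Log2 fold change, EcTM over non-EcTM, of the 8 tested genes from the paired edgeR fit, with 95% confidence intervals, unadjusted for the number of genes tested, as black lines. Blue ticks are fits with 1 pair left out and red ticks other alternatives. The interval of Actb spans 0.04 to 0.19, and the intervals of Coro1a and Lcp1 are the widest.

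Actb (Entrez 11461, chr5:142903115-142907976) encodes beta-actin, the main cytoplasmic actin of most nonmuscle cells. The 4 EcTM libraries held 12811, 13747, 13706 and 14539 CPM. The 4 non-EcTM libraries held 12898, 12522, 12679 and 12491 CPM. E591 lay within the non-EcTM range, and the other 3 EcTM libraries lay above it. The means were 13701 ± 706 CPM in EcTM against 12647 ± 186 CPM in non-EcTM (SD, n = 4 each), and the difference was positive in 3 of 4 pairs. The log2 fold change was 0.11 (SE 0.04), or 8.23% higher in EcTM with a 95% interval of 2.93% to 13.8%, and did not pass edgeR's quasi-likelihood test (adjusted p = 0.635, unadjusted p = 0.00340). Leaving out E606 and N606 took the log2 fold change to 0.07, and leaving out E591 and N591 took it to 0.16. Without E592 and N592 or without E604 and N604 it was 0.11. In none of these fits did Actb pass. Limma-voom gave 0.13 with an adjusted p of 5.08e-07, and over all alternatives tried the adjusted p ranged from 5.08e-07 to 0.998.

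Actg1 (Entrez 11465, chr11:120345687-120348495) encodes gamma-actin, the other cytoplasmic actin. Its counts were 6, 3, 0 and 3 in EcTM and 29, 5, 2 and 9 in non-EcTM libraries. Each non-EcTM library held more than its EcTM partner, but the groups overlapped. The level that 3 counts correspond to was 0.99 to 1.43 CPM, so several of these values lie at or under it. The library with 29 counts, N591, also had the highest summed endothelial, mural, fibroblast and cardiomyocyte markers (926, 295, 201 and 176 CPM), and their part in this value was not tested. With no filter on low counts edgeR gave a log2 fold change of -1.60 (SE 1.48, adjusted p = 0.992).

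Myh9 (Entrez 17886, chr15:77760585-77842175) encodes the heavy chain of nonmuscle myosin IIA, the predominant myosin II motor of leukocytes. EcTM libraries held 6034, 6226, 6073 and 6130 CPM, and non-EcTM libraries 5838, 5588, 5700 and 5931 CPM. Every EcTM library was above every non-EcTM library, a separation seen for 99 tested genes (1.29%), and among these 8 genes only for Myh9. As a share of all counts, without scaling factors, the groups overlapped, at 0.588% to 0.609% in EcTM and 0.554% to 0.612% in non-EcTM. The means were 6116 ± 83.7 CPM and 5764 ± 151 CPM (SD, n = 4 each). The log2 fold change was 0.09 (SE 0.04), or 6.12% with a 95% interval of 0.187% to 12.4%, and did not pass the edgeR test (adjusted p = 0.907). Myh9 and Vim were higher in EcTM in 4 of 4 pairs, as were 557 tested genes (7.26%), and none of the 8 was lower in all 4 pairs.

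Cfl1 (Entrez 12631, chr19:5490455-5494031) encodes cofilin 1, which severs actin filaments. It stood at 666, 639, 671 and 798 CPM in EcTM libraries and 664, 708, 763 and 663 CPM in the non-EcTM libraries. The pairs went in opposite directions, with EcTM higher in 2 of 4. The fitted change was -1.03% with a 95% interval of -12.2% to 11.5% (edgeR adjusted p = 0.998), and its sign turned without E592 and N592 or without E604 and N604, with log2 fold changes from -0.12 to 0.04 over the pairs left out.

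Coro1a (Entrez 12721, chr7:126699774-126704816) encodes coronin 1A, an actin-binding protein of blood cells. Its counts were 52, 54, 44 and 8 in EcTM libraries and 56, 44, 48 and 52 in the non-EcTM libraries. E606 stood apart at 3.16 CPM, below all 7 other libraries, which lay between 17.2 and 24.8 CPM. The means were 17.8 ± 10.1 CPM in EcTM against 19.4 ± 2.59 CPM in non-EcTM (SD, n = 4 each). The log2 fold change was -0.35 (SE 0.45, edgeR adjusted p = 0.976), and without E606 and N606 it was 0.17.

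Lcp1 (Entrez 18826, chr14:75131105-75230842) encodes L-plastin, the actin-bundling plastin of leukocytes. It stood at 64.3, 80.9, 88.2 and 87.7 CPM in EcTM libraries and 70.7, 76.3, 74.6 and 97.0 CPM in the non-EcTM libraries. The ranges lay largely on top of each other, and EcTM was higher in 2 of 4 pairs. The fitted change was 0.689% with a 95% interval of -22.4% to 30.7% (edgeR adjusted p = 0.998), so these libraries leave room for changes of that size in either direction. Scaling by library totals alone turned the sign, to a log2 fold change of -0.03, and leaving out single pairs gave -0.07 to 0.06.

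Flna (Entrez 192176, chrX:74223461-74249854) encodes filamin A, which crosslinks filaments into networks and anchors membrane proteins to them. It had 0, 0, 1 and 1 counts in EcTM libraries and 4, 0, 0 and 1 in the non-EcTM libraries. Every library but N591 lay under 3 counts, and no fold change is given. These counts are too few to give a level.

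Tln1 (Entrez 21894, chr4:43531513-43562583) encodes talin 1, which activates integrins and ties them to actin. It stood at 3647, 3760, 3670 and 3742 CPM in EcTM libraries and 3761, 3353, 3483 and 3596 CPM in the non-EcTM libraries. The EcTM libraries were close together, and N591 was the highest of the 8. The means were 3705 ± 54.7 CPM and 3548 ± 173 CPM (SD, n = 4 each). The log2 fold change of 0.06 (SE 0.05) did not pass the edgeR test (adjusted p = 0.964), with a 95% interval of -2.45% to 11.9%.

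Vim (Entrez 22352, chr2:13574311-13582826) encodes vimentin. It stood at 2717, 3846, 3124 and 4383 CPM in EcTM libraries and 2706, 3454, 3030 and 3849 CPM in the non-EcTM libraries. Each EcTM library was above its partner, by little for E591, and the groups overlapped widely. The log2 fold change was 0.10 (SE 0.05), or 7.06% with a 95% interval of -0.201% to 14.8% (edgeR adjusted p = 0.921).

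Ahnak (Entrez 66395, chr19:8989284-9076935) encodes a very large scaffold protein found beneath the plasma membrane. It stood at 7943, 9742, 7321 and 8086 CPM in EcTM libraries and 7918, 9306, 7938 and 8807 CPM in the non-EcTM libraries. EcTM was higher for E591 and E592 and lower for E604 and E606 than in their partners. The fitted change was -2.90% with a 95% interval of -8.17% to 2.68% (edgeR adjusted p = 0.964).

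**Figure D3:**
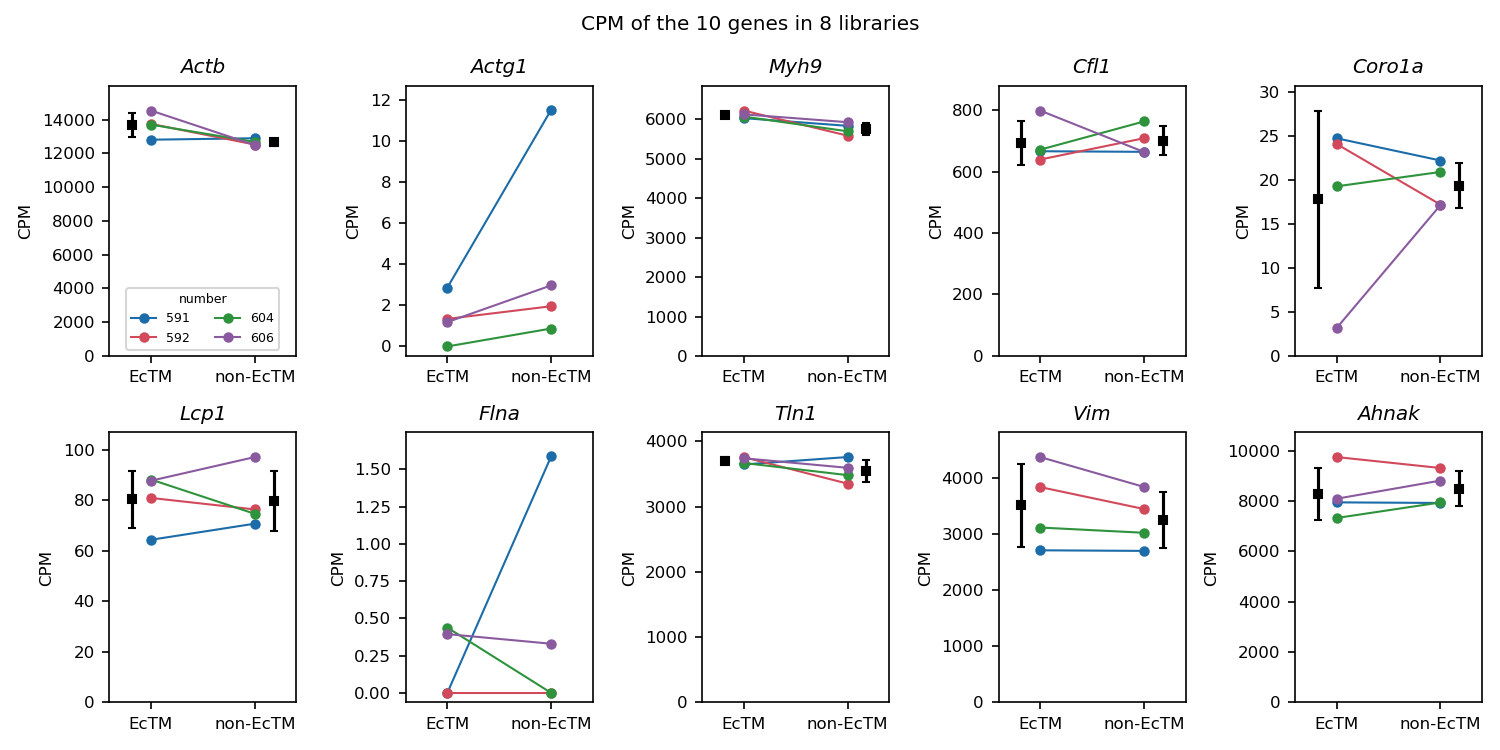
CPM of the 10 genes in the 8 libraries, from 0, with lines joining the EcTM and non-EcTM library of the same number. Black squares and bars are group means and SDs (n = 4), not drawn for Actg1 and Flna, whose counts are near 0. Library numbers spread Vim more than the groups do, and E606 lies low for Coro1a at 3.16 CPM.

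Vim and Ahnak differed between library numbers, each with only its EcTM and its non-EcTM library as replicates. The edgeR test of the number in the same fit called 233 genes (3.04%) and, of the 8 tested genes here, Vim (adjusted p = 1.04e-05) and Ahnak (adjusted p = 0.00217). Of the 117 most abundant genes the same test called 34 (29.1%), and of the 5 described here at that level it called 2. For Actb, Myh9 and Tln1, also at that level, the adjusted p for the number was 0.905, 0.985 and 0.957.

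The mean Vim level of a pair went from 2712 CPM (E591 and N591) to 3077 (E604 and N604), 3650 (E592 and N592) and 4116 (E606 and N606), a 1.52-fold range, and in this order the libraries of neighbouring pairs did not overlap. Without the lowest or the highest pair the range was 1.34-fold and 1.35-fold, and Vim still passed the number test. The Ahnak pair means were 7630 CPM (E604 and N604), 7930 (E591 and N591), 8446 (E606 and N606) and 9524 (E592 and N592), a 1.25-fold range, and both E592 and N592 lay above the other 6. Without that pair the range was 1.11-fold and Ahnak no longer passed (edgeR adjusted p = 0.346). By contrast the pair means of Actb spanned 1.05-fold, those of Tln1 1.04-fold and those of Myh9 1.02-fold. The SD of log2 CPM over the 8 libraries was 0.25 for Vim and 0.14 for Ahnak, against 0.08 for Actb, 0.05 for Myh9, 0.06 for Tln1 and a median of 0.12 over the 117 abundant genes.

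Other measures moved with the number as well. The test called 8 of 17 tested immediate early genes, 3 of 4 nuclear noncoding RNAs (Malat1, Neat1 and Xist) and 4 of 13 macrophage markers. Beside these stand 3.04% of all tested genes and 29.1% of the 117 most abundant genes. The called immediate early genes were abundant, from 1160 CPM (Fosl2) to 10875 CPM (Egr1) on average in EcTM. It also called markers of other cells: 4 of 5 tested endothelial and endocardial markers (Cdh5, Ptprb, Flt1 and Kdr), 2 of 4 fibroblast markers (Col3a1 and Col1a1) and 1 of 5 mural markers (Rgs5). The summed endothelial and endocardial markers stood at 337, 52.7, 43.0 and 237 CPM in EcTM and 926, 90.4, 150 and 123 CPM in non-EcTM libraries, highest in the E591 and N591 pair, where Vim was lowest. E592 and N592 had the highest summed nuclear noncoding RNA, at 27926 and 25104 CPM. They also differed in the sex-linked transcripts, with Xist at 1 and 8 counts against 935 to 1682 in the other libraries and Ddx3y at 260 and 307 counts against 1 to 7. The part of these measures in the Vim and Ahnak values was not tested.

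**Figure D4:**
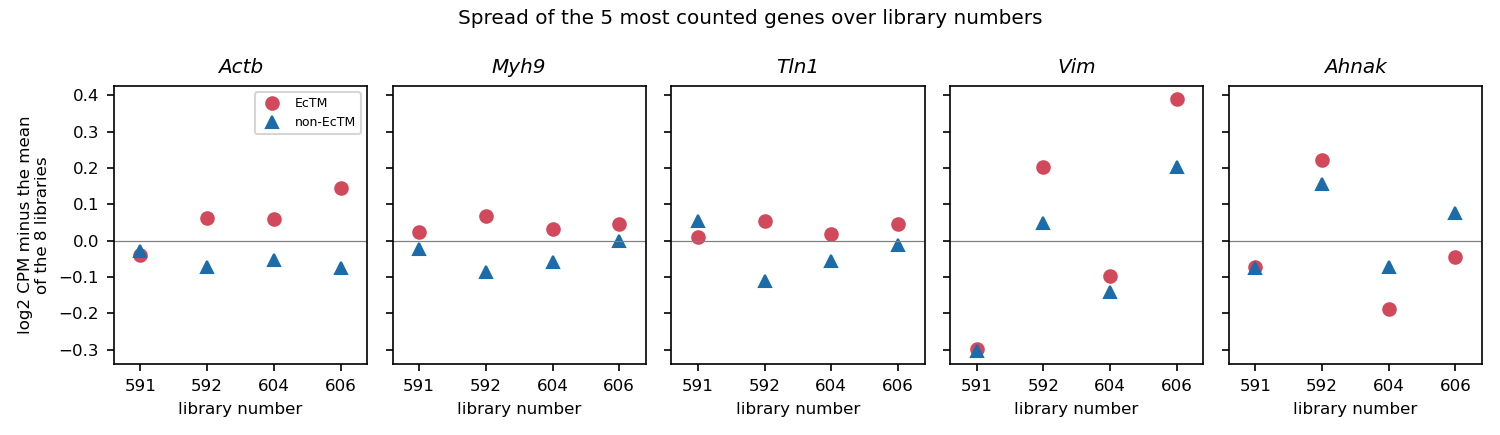
Log2 CPM of the 5 most counted genes, minus the mean of the 8 libraries, by library number, with circles for EcTM and triangles for non-EcTM. Vim spans a 1.52-fold range of pair means and Ahnak 1.25-fold with E592 and N592 highest, whereas Actb, Tln1 and Myh9 stay within 1.05-fold.

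The wider machinery showed as few calls. Of 126 further genes in 6 lists of cytoskeletal partners, 125 were in the table, 9 were at 0 in every library and 91 were tested. The paired edgeR test called 0 of the 91 for EcTM against non-EcTM, and 7 (7.69%) had an unadjusted p under 0.05, beside 5.40% of all tested genes. Limma-voom called 0 of the 91 and DESeq2 0 of the 61 to which it gave an adjusted p. In all 50 were higher and 40 lower, with a median log2 fold change of 0.02.

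By list, 3 of 12 tested myosin II genes and regulators were higher and 8 lower in EcTM. Mylk, the kinase that phosphorylates myosin light chains, averaged 26.1 ± 5.72 CPM in EcTM against 49.3 ± 12.2 CPM in non-EcTM (SD, n = 4 each; edgeR adjusted p = 0.608). Mylk is also on the mural marker list, whose sum reached 295 CPM in N591 with Myh11 at 0, and the part of mural RNA was not tested. Among actin nucleation genes 14 of 22 were higher and 8 lower. Arpc5l and Actr3, subunits of or related to the Arp2/3 complex that starts filament branches, had 28.5 ± 4.22 against 13.1 ± 4.30 CPM and 21.0 ± 4.68 against 8.73 ± 4.19 CPM, and neither passed (edgeR adjusted p = 0.697 and 0.769). Of the turnover genes 12 of 19 were higher and 7 lower. Of the bundling genes 7 of 11 were higher and 4 lower. In the integrin linkage list 9 of 16 were higher and 7 lower. Its smallest p-values were those of Fermt2, Msn and Apbb1ip, and none passed. Fermt2, encoding the integrin activator kindlin-2, averaged 5.75 ± 3.69 CPM in EcTM against 19.6 ± 22.02 CPM in non-EcTM (SD, n = 4 each; edgeR adjusted p = 0.894). The part of RNA from other cells in the Fermt2 values was not tested. Msn, encoding moesin, which links actin to the membrane, averaged 2690 ± 86.5 CPM in EcTM against 2469 ± 42.5 CPM in non-EcTM (SD, n = 4 each; edgeR adjusted p = 0.897). Apbb1ip, encoding the talin recruiter RIAM, averaged 262 ± 44.9 CPM against 213 ± 28.7 CPM (SD, n = 4 each; edgeR adjusted p = 0.907). In the list of intermediate filaments and Ahnak partners 5 of 11 were higher and 6 lower.

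The number test called 4 of the 91 genes (4.40%), close to the 3.04% of all tested genes. They were Lmnb1 (edgeR adjusted p = 3.02e-05) and Lmna (adjusted p = 0.0242), which encode nuclear lamins, Tln2 (adjusted p = 0.00145), which encodes the second talin, and Sptbn1 (adjusted p = 0.00939), which encodes a spectrin. Factors of the SRF pathway, which controls many actin genes, split 3 higher and 3 lower of 6 tested. Muscle actin and myosin genes split 1 higher and 5 lower of 6. Tubulins split 4 higher and 4 lower of 8. None of these 3 lists held a gene called for the group. The number test called Tubb5 among the tubulins (edgeR adjusted p = 6.32e-05) and Myh7 among the muscle genes (adjusted p = 0.04685).

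Over the 8 libraries, the mean standardised log2 CPM of the 8 tested genes was tracked most closely by Zfp638 (Pearson r = 0.964), Swap70 (0.963), Skap2 (0.954), Aff4 (0.954) and Nfe2l2 (0.930), among 2496 other genes whose mean log2 CPM was 6 or more. These correlations rest on 8 libraries that share numbers and scaling factors and were picked as the highest of many.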

How the data were processed

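Total RNA of sorted cells was made into libraries with a stranded pico-input kit, per the labels' protocols. Per the submitters' processing notes, bcl2fastq 2.17, TopHat, DESeq2 and R 3.2 were used with mm10. The labels and notes name no counting program, annotation or strand setting. The authors deposited raw read counts per gene and, beside them, log2 values per library. The counts were used for all main results and the deposited log2 values only as an alternative.

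Counts were scaled by TMM (factors 0.969 to 1.04) and filtered with filterByExpr, which left 7667 genes holding 99.3% of the counts. The 45S ribosomal RNA gene Rn45s took 6.99% to 9.13% of each library. The test was edgeR 4.0.16 (R 4.3.3) quasi-likelihood with group and library number in the model, Benjamini-Hochberg adjusted, threshold 0.05. The group test was checked on simulated counts that held changes between groups and none between numbers. The number test was not checked in this way. Libraries were paired by the digits in their titles. Those of 1 number deviated together (r of deviations from group means 0.122 to 0.186 in each of the 4 pairs, -0.127 to 0.053 between other numbers). What the digits stand for is not in the labels. No 2 libraries of the same group agreed within sampling noise (lowest chi-square per degree of freedom 7.41). EcTM libraries were not compared with non-EcTM libraries in this way. Alternatives used DESeq2 1.42.0 and limma 3.58.1, other scalings and filters, no block, genes with 1 curated transcript, and each number left out. Sequences and coordinates are from GRCm38 with GENCODE M21, transcript numbers from RefSeq.

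The genes, marker lists and tests were chosen with earlier results of these data known. Named are the 10 genes, up to 3 genes per other list with the smallest unadjusted p, genes called for the number, and the 5 most similar genes. Genes called for the number, cell markers among them, Xist and Ddx3y were named after their values were seen.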

Additional observations from a re-analysis of the deposited data

How the results depend on the processing

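Pairing: with no replicate block edgeR called 0 of 7667 genes (257 at an unadjusted p under 0.05) against 1 with it, and 0 of the 8 genes in both. Over all genes the number called for the group was 10 with no filter, 26 with DESeq2, 19 with limma-voom, 0 with limma on the deposited log2 values (484 at an unadjusted p under 0.05), 0 among genes with 1 curated transcript (280 at an unadjusted p under 0.05) and 1 to 2 when a number was left out. For the library number, 233 became 350 with no filter, 442 with DESeq2, 124 on the deposited log2 values and 146 to 179 when a number was left out. Of the 8 genes, the number test called 0 on the deposited log2 values, 1 among genes with 1 curated transcript, which leaves out Ahnak, and 1 to 2 when a number was left out. Directions turned for Lcp1 (-0.027 by library totals, -0.0687 to 0.0591 without a number), Coro1a (-0.67 to 0.17 without a number) and Cfl1 (-0.115 to 0.0398 without a number); the cause was not tested. Actb, Myh9, Tln1, Vim and Ahnak kept their direction under every alternative run. The summed share difference of 0.0698 points was 0.159 with TMM scaling, -0.00299 without Actb and 0.0297 to 0.113 when a number was left out. Depth limits Coro1a, Actg1 and Flna, with 358, 57 and 7 counts in all.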
